A study of Mus musculus with 6 samples.

Results

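ATF4-binding sites that fell in simple repeats, low complexity sequence or satellite DNA were collected from 4 ChIP-seq peak lists of mouse embryonic fibroblasts (MEFs). A peak was taken when it was annotated to an intron or to intergenic sequence and the repeat annotation of its center was simple repeat, low complexity or satellite. This rule took 115 of the 17462 listed peaks, with 41 (+Leu) and 39 (-Leu) in WT and 17 (+Leu) and 18 (-Leu) in GCN2 KO. They are called repeat peaks here and lay at 111 separate sites. The other intron and intergenic peaks of the same lists (4224, 5449, 3038 and 2260 in the same order) are the peaks they are set beside. A further 2 peaks in these repeat classes had a blank gene annotation, 1 in each GCN2 KO list, and were left out by the rule.

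The cells were MEFs labelled as strain 129S6/SvEvTac, either wild type (WT) or GCN2-/- (GCN2 KO), lacking the kinase that senses amino acid shortage. They were grown for 24 h in DMEM with (+Leu) or without (-Leu) leucine, with no other agent named. The paper calls the MEFs of its ChIP-seq primary, and names ATCC as the source of MEFs in its ChIP-qPCR methods. Chromatin from 2 experiments, with at least 5 replicates in each, was pooled into 1 ChIP library per condition. Differences between conditions therefore have no replicate check, and no p-value is given. Both lists of a genotype were called against the same +Leu input library. Peak lists show neither the GCN2 deletion nor the cell type, so neither label could be checked, and the depth of the libraries is unknown.

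ATF4 is a basic leucine zipper transcription factor whose translation rises when GCN2 phosphorylates eIF2α. With C/EBP partners it binds a composite site, TGATGCAA, in genes of amino acid metabolism and the stress response. Simple repeats, or microsatellites, are short units copied head to tail, low complexity sequence is biased to 1 or a few bases, and satellites are longer units in arrays. Such sequence is known to vary in length between individuals and strains, and short reads from it can be hard to place. Repeat peaks are therefore often checked for sites that are listed whatever the condition.

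The sequences below are the middle 151 bases of the peak window, 5′ to 3′ on the plus strand of the mouse reference (GRCm38, the assembly of mm10, from C57BL/6J and so not the strain of these cells). They are shown with the nearest gene, the repeat name and the list. Capitals mark stretches of at least 5 bases made of the named unit, in any phase and on either strand. In the CT-rich peak they mark TGATGNAA, the composite site with any base at its variable position. The first 5 are the sites that were listed in more than 1 condition, the next 4 are high-scoring repeat peaks of each list that were found in that list alone, and the last 3 show an uninterrupted CA tract, the satellite ZP3AR and the low complexity peak nearest in sequence to the ATF4 site.
Pisd-ps3 (CTGTG)n, WT -Leu, chrUn_JH584304:2478-2628: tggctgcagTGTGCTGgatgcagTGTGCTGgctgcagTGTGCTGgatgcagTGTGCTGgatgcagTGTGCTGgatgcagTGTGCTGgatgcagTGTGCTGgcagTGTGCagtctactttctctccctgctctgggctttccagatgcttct
Pou4f1 (CGGAA)n, WT -Leu, chr14:104336913-104337063: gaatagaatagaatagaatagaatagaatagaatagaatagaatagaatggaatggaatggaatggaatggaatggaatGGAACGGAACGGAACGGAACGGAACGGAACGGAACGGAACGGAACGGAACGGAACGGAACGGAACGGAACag
2700054A10Rik (CTGTG)n, WT -Leu, chr17:13552210-13552360: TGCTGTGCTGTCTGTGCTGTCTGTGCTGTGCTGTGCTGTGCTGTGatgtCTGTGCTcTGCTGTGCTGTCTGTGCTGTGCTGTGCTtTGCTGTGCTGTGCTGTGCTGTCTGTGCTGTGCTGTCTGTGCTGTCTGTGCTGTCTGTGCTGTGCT
Vmn1r2 (CACAG)n, WT +Leu, chr4:3067738-3067888: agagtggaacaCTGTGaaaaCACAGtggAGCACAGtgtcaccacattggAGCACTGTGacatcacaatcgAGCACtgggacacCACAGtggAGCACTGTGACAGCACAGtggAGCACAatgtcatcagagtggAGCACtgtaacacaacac
Ankrd11 (CA)n, WT +Leu, chr8:123041044-123041194: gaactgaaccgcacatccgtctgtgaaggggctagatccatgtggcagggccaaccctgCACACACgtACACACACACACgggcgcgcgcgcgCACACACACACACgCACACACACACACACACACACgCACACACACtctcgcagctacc
Twistnb (TG)n, WT +Leu, chr12:33671344-33671494: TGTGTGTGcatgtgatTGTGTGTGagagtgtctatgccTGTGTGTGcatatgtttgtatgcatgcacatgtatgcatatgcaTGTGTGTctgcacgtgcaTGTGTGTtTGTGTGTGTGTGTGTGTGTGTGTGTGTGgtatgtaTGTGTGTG
Zfp827 (TG)n, WT -Leu, chr8:79041450-79041600: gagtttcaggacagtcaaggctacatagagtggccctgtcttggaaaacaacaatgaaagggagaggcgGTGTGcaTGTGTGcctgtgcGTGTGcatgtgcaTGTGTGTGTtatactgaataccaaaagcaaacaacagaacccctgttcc
Ndrg4 (CA)n, GCN2 KO +Leu, chr8:95683452-95683602: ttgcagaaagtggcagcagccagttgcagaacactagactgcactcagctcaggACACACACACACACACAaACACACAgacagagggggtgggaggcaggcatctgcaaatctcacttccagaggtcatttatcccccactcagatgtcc
Mmp13 (CA)n, GCN2 KO -Leu, chr9:7238755-7238905: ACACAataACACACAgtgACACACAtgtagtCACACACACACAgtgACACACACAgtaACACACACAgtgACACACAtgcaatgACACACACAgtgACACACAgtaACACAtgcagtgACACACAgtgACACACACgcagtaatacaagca
Tspo2 (CA)n, GCN2 KO -Leu, chr17:48447097-48447247: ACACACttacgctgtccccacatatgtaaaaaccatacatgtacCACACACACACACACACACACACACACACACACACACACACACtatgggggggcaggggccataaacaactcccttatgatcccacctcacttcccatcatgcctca
Cux1 ZP3AR, WT +Leu, chr5:136626541-136626691: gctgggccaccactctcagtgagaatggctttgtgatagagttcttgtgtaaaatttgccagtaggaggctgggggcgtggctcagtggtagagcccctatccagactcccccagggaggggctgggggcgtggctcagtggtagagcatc
Gm19510 CT-rich, WT -Leu, chr15:59828827-59828977: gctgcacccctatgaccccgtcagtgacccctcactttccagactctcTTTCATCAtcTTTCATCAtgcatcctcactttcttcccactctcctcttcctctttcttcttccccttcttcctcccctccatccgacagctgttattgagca
The named unit filled unequal parts of these stretches. It made up 96.0% of the bases at 2700054A10Rik and 46.4% at Pou4f1, where a run of 70 bases of 1 pentamer followed arrays of related pentamers. At Zfp827 it made up 16.6%.

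Simple repeats were the largest class in every list. They held 36 (+Leu) and 31 (-Leu) of the repeat peaks in WT and 14 (+Leu) and 15 (-Leu) in GCN2 KO. In the same order satellites held 3, 4, 2 and 2, and low complexity sequence 2, 4, 1 and 1. Among the 96 simple repeat peaks there were 25 different units when a unit was joined with its rotations and its reverse complement. The CA unit led with 48 peaks, of which 28 were named (CA)n and 20 (TG)n, and these lay at 48 separate sites. The CACAG unit followed with 9 peaks at 6 sites, then CAGA with 5, and CACG and CAGG with 4 each. There were 14 units with a single peak.

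The CA unit held 55.6% of the simple repeat peaks of WT +Leu (95% Wilson interval 39.6 to 70.5) and 41.9% of those of WT -Leu (26.4 to 59.2). In GCN2 KO it held 50.0% with leucine (26.8 to 73.2) and 53.3% without it (30.1 to 75.2). All 4 intervals overlap, so no difference between conditions was detectable at these numbers. The intervals here and below cover counting error only. In the reference as a whole, perfect tandem tracts of at least 30 bases with units of 2 to 6 bases numbered 575102, and 34.0% of them were CA tracts. The pooled share of CA among simple repeat peaks was 50.0% (40.2 to 59.8), above the genome share. The denominators differ, since the annotation of a peak also takes imperfect and shorter repeats.

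The GA unit stood the other way. It made 16.6% of the perfect tracts of the reference, 95573 in all, and was the unit of 1 simple repeat peak of 96 (1.04%, 0.184 to 5.67). That peak was in WT +Leu near Ccdc42, with a score of 24, and was chosen for naming after its values were seen. AT repeats, with 26235 tracts in the reference (4.56%), had 0 simple repeat peaks, which allows a share of up to 3.13%. Of the 12 commonest units of the reference, 7 had no repeat peak in any list, and together those 7 held 25.5% of the tracts. Units of 5 bases, CACAG among them, were 16 of the 96 simple repeat peaks (16.7%, 10.5 to 25.4) against 7.32% of the tracts. Of these 16 peaks, 9 were of the CACAG unit, which made 0.068% of the tracts. Those 9 lay at 6 sites, so the interval counts some sites more than once.

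**Figure D1:**
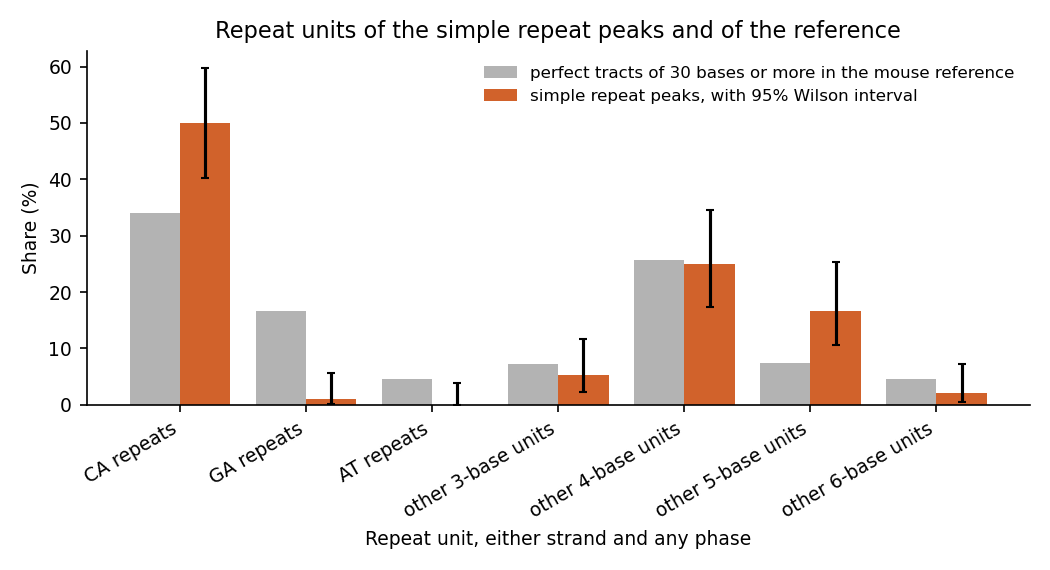
Share in percent of the 96 simple repeat peaks of the 4 lists (orange bars, with 95% Wilson intervals) and of the perfect tandem tracts of at least 30 bases in the mouse reference (grey bars), by repeat unit. CA repeats were 50.0% of the peaks and 34.0% of the tracts, and GA repeats 1.04% of the peaks and 16.6% of the tracts.

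Long tracts were less frequent at peaks than in the sequence beside them. A perfect CA tract of at least 30 bases lay in 0.914% of the intron and intergenic peak windows of WT +Leu, repeat peaks included, and in 2.18% of windows of the same length 1 kb to either side. In WT -Leu the shares were 1.22% and 2.81%. In GCN2 KO they were 0.687% and 2.47% with leucine, and 0.878% and 2.66% without it. The intervals of peak and neighbouring windows do not overlap in any of the 4 lists. For GA tracts the distance was wider: over the 4 lists they lay in 13 of 15086 peak windows (0.0862%, 0.0504 to 0.147) and in 351 of 30172 neighbouring windows (1.16%, 1.05 to 1.29). Of the repeat peaks themselves, 21 of 115 held such a CA tract and 0 of 115 a GA tract. In the windows beside the repeat peaks each kind lay in 5 of 230.

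**Figure D2:**
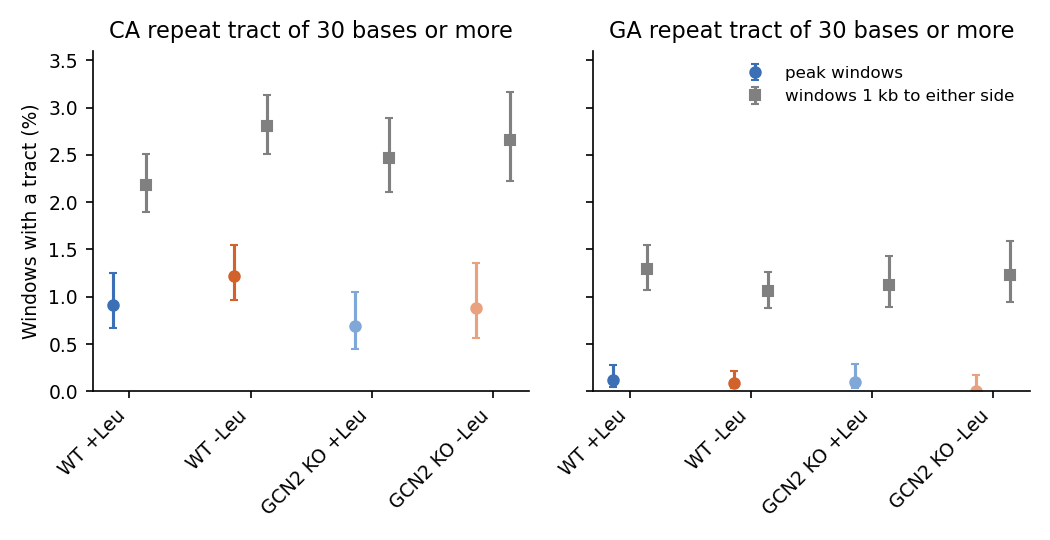
Share in percent of intron and intergenic peak windows (circles, colored by list) and of equally long windows 1 kb to either side (grey squares) that hold a perfect CA tract (left) or GA tract (right) of at least 30 bases, with 95% Wilson intervals. In each list the peak windows lie below the neighbouring windows for both tracts.

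Few repeat peaks were long perfect tracts. The longest perfect tandem run in the window reached 20 bases in 51 of the 115 repeat peaks and 30 bases in 26, and in 15 it was under 12 bases. The longest was the 70-base run near Pou4f1. Where the run reached 20 bases its midpoint lay at a median of 13.5 bp from the peak center. The center base itself was marked as repeat in the soft-masked reference in 96 of the 115. Windows were on the whole distinct in the reference by exact match. With the 50-base length of the reads, the median repeat peak had 100% of its 50-base words found once in the reference, in every list. The lowest value was 57.5%. Copies that differ in any base were counted as distinct, so this share does not measure how well reads could be placed. Under 90% of the words were found once in 9 repeat peaks (7.83%, 4.17 to 14.2) and in 0.808% of the other intron and intergenic peaks (0.677 to 0.965), a difference of 7.02 percentage points (95% Newcombe interval 3.36 to 13.4). The rule chose repeat sequence, so this difference is not independent of the rule. The 9 peaks were also not 9 separate sites, which the interval ignores: the sites near Pisd-ps3, Pou4f1 and 2700054A10Rik each gave 2 of them.

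The satellites were of 2 names. IMPB_01 had 7 repeat peaks with scores from 17 to 45, among them the peak near Celf4 (an RNA-binding protein) in GCN2 KO +Leu at 40 and the peak near Tigd4 in WT -Leu at 37. In the intron of Senp5, a SUMO protease gene, it scored 35 in WT +Leu. These windows were rich in CA: stretches of at least 5 bases of CA or TG covered 24.6% to 55.5% of an IMPB_01 window, against 8.0% to 78.1% of a window named (CA)n or (TG)n and a median of 2.33% in the other intron and intergenic peaks. ZP3AR had 4 repeat peaks with scores from 19 to 30, near Sipa1l3, Cux1, Ncf1 and Sec14l5, and CA stretches covered 1.66% to 4.65% of its windows. In WT -Leu a further IMPB_01 peak near 1700060C16Rik scored 23. The low complexity peaks scored from 14 to 54, among them AT_rich peaks near Lmo4 in WT +Leu at 26 and near 2810408M09Rik in GCN2 KO -Leu at 28, a CT-rich peak near 4932435O22Rik in WT +Leu at 14, a C-rich peak in an intron of Col11a2, a collagen gene, in WT -Leu at 23, and a G-rich peak near Zdhhc25 in GCN2 KO +Leu at 24. A peak in another list was found for 0 of the 11 satellite peaks and 0 of the 8 low complexity peaks. At these numbers the counts of 0 allow up to 27.3% and 37.5%, well above the 4.62% to 6.73% of all intron and intergenic peaks, so no difference was detectable.

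The scores of repeat peaks lay around the middle of each list. Each listed peak carries the peak caller's score, a whole number from 13 up whose scale is not stated and which was not normalized between libraries, so it is read within a list. In WT +Leu the scores of the repeat peaks ran from 14 through a median of 29 to 73. In WT -Leu they ran from 13 through 30 to 127. In GCN2 KO they ran from 19 through 29 to 40 with leucine and from 19 through 29.5 to 62 without it. The medians of the other intron and intergenic peaks were 30, 30, 29 and 30, and their highest scores 1409, 2628, 387 and 353. The medians of repeat peaks and other peaks thus differed by at most 1 point in any list, while the highest scores were in the other peaks. Many scores were tied, so 1 point can span many ranks. As percentiles of the list, the medians were 49.9, 55.3, 52.6 and 55.9 for repeat peaks and 62.2, 55.3, 52.6 and 63.8 for the others. The upper quartiles of the score were 30, 38, 30 and 40 for repeat peaks and 37, 45, 35 and 35 for the others. The top 10% of the list by score held 4 of 18 repeat peaks in GCN2 KO -Leu (22.2%, 9.001 to 45.2) against 10.3% of the other peaks, a difference of 11.9 points (-1.37 to 34.9). It held 3 of 41 in WT +Leu, 2 of 39 in WT -Leu and 0 of 17 in GCN2 KO +Leu, and these 3 differences also had intervals that span 0.

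In WT, 17 of 41 repeat peaks with leucine and 22 of 39 without it scored 30 or more, and in GCN2 KO 6 of 17 and 9 of 18 did. Of all intron and intergenic peaks of the 4 lists, in this order, 50.1%, 58.5%, 46.9% and 53.2% did. Repeat peaks minus other peaks came to -8.73 percentage points (-22.5 to 6.52), -2.06 (-17.5 to 12.3), -11.7 (-29.8 to 11.8) and -3.27 (-24.3 to 17.8). All 4 intervals span 0, so no difference was detectable at these numbers. Only 2 repeat peaks scored 100 or more, both in WT -Leu (5.13%, 1.42 to 16.9), where 9.46% of all intron and intergenic peaks reached it. In the other lists that background was 1.52%, 0.524% and 0.483%, and 0 repeat peaks allow up to 7.32%, 17.6% and 16.7%.

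**Figure D3:**
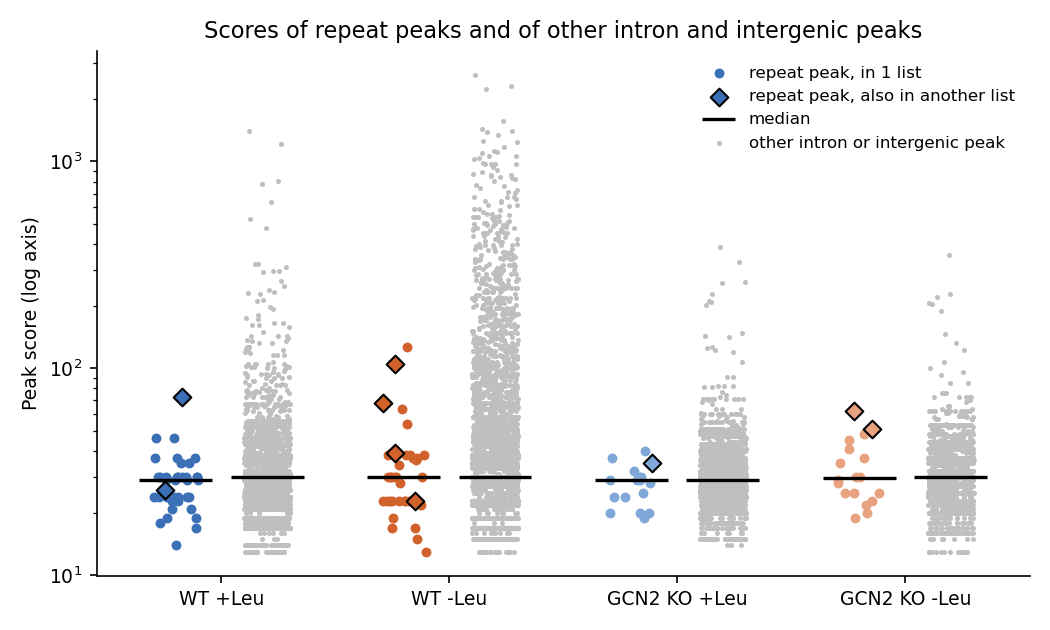
Peak score on a log axis for repeat peaks (colored points, diamonds where another list held a peak at the same site) and other intron and intergenic peaks (grey points) in each list, with black lines at the medians. The medians lie between 29 and 30 in all 8 groups, and the repeat peaks end at 73, 127, 40 and 62.

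The strongest repeat peaks were mixed in kind. In WT +Leu the first was a (CA)n peak near Ankrd11, a gene for an ankyrin repeat regulator of chromatin, with a score of 73 and rank 142 of 4850. It lay 1165 bp from the transcription start site (TSS), in intron 1 of 13 of the annotated transcript, and was the 1 repeat peak of that list within 5 kb of a TSS. Next came (TG)n peaks near Twistnb, a subunit of RNA polymerase I, and Rab12, a small GTPase, at 46 each, and then a (TAAG)n peak near Kdm6b and a (CA)n peak near Myo16 at 37.

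In WT -Leu the first was a (TG)n peak near Zfp827, a zinc finger gene, with a score of 127 and rank 479 of 6374, in intron 1 of 14. A (CTGTG)n peak on the unplaced contig chrUn_JH584304, nearest to the pseudogene Pisd-ps3, scored 105, and the (CGGAA)n peak near Pou4f1, a POU homeodomain factor of sensory neurons, scored 68. A (TCC)n peak 2419 bp upstream of Fam58b scored 64, and a CT-rich peak near Gm19510 scored 54. A C-rich peak in intron 1 of 3 of Wnt6, which encodes a secreted WNT ligand, scored 39.

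In GCN2 KO +Leu no repeat peak passed 40. After the satellite near Celf4 came a (CA)n peak near Ndrg4 at 37, the same contig site near Pisd-ps3 at 35, a (CACG)n peak in an intron of Skap1, an adaptor of T cell receptor signaling, at 32, and a (CA)n peak near Stc1, a secreted glycoprotein, at 30. In GCN2 KO -Leu the Pou4f1 site led with 62, which was rank 42 of 2672, followed by the (CTGTG)n site in 2700054A10Rik at 51 and a (CA)n peak near Mmp13, a collagenase, at 48. A (CA)n peak near Gabbr2, a subunit of the GABA-B receptor, was also among the 5 highest, with 41.

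Recurrence was read from peak centers 300 bp or less apart. Another list held a peak at the site of 2 of 41 repeat peaks with leucine and 4 of 39 without it in WT, and of 1 of 17 and 2 of 18 in GCN2 KO. Of all intron and intergenic peaks, 6.73%, 5.59%, 4.62% and 6.23% had one. Repeat peaks minus other peaks came to -1.87 points (-5.49 to 9.41), 4.696 (-1.53 to 18.03), 1.27 (-3.63 to 22.4) and 4.92 (-3.16 to 26.6). These intervals span 0, so no difference was detectable, and each reaches further above 0 than below it. Counted as sites, 106 of the 111 were in 1 list, 4 in 2 lists, 1 in 3 lists and 0 in all 4. Sites in 2 or more lists were 4.50% of the repeat sites (1.94 to 10.1) and 2.75% of the 14489 other intron and intergenic sites (2.50 to 3.03), a difference of 1.75 points (-0.830 to 7.37). Among the other sites, 22 were in all 4 lists.

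Within a genotype, where both lists share an input, the other leucine condition held a peak at 2 of 41 repeat peaks of WT +Leu and 2 of 39 of WT -Leu. The backgrounds were 5.67% and 4.45%. In GCN2 KO it did so at 0 of 17 with leucine and 0 of 18 without it, which allows up to 17.6% and 16.7%, beside backgrounds of 2.49% and 3.38%. Across genotypes, 2 of the 18 repeat peaks of GCN2 KO -Leu (11.1%, 3.10 to 32.8) had a WT -Leu peak, beside 2.94% of all intron and intergenic peaks of that list. A WT +Leu peak was there for 0 of 18, which allows up to 16.7%, beside 2.59%. Of the 17 of GCN2 KO +Leu, 1 had both a WT +Leu and a WT -Leu peak. From the side of WT, 2 of the 39 repeat peaks of WT -Leu (5.13%, 1.42 to 16.9) had a GCN2 KO -Leu peak and 1 a GCN2 KO +Leu peak, beside 1.2% and 1.33%. Of the 41 of WT +Leu, 0 had a peak in either GCN2 KO list, which allows up to 7.32%. The backgrounds were 1.41% for GCN2 KO +Leu and 1.38% for GCN2 KO -Leu, so no difference was detectable.

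The 5 sites had these scores. The contig site near Pisd-ps3 scored 105 in WT -Leu and 35 in GCN2 KO +Leu, and was not in GCN2 KO -Leu. In WT +Leu it scored 30, with the center in the long terminal repeat element RMER10A. The Pou4f1 site scored 68 in WT -Leu and 62 in GCN2 KO -Leu, with centers 3 bp apart, and was in neither +Leu list. The 2700054A10Rik site scored 51 in GCN2 KO -Leu and 23 in WT -Leu, with centers 105 bp apart. Both of these sites were thus listed without leucine in both genotypes and not with it. The (CACAG)n site near Vmn1r2 scored 39 in WT -Leu and 26 in WT +Leu, with centers 5 bp apart, and was in neither GCN2 KO list. The Ankrd11 site scored 73 in WT +Leu and 19 in WT -Leu, where the center lay 80 bp away in unmasked intron.

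**Figure D4:**
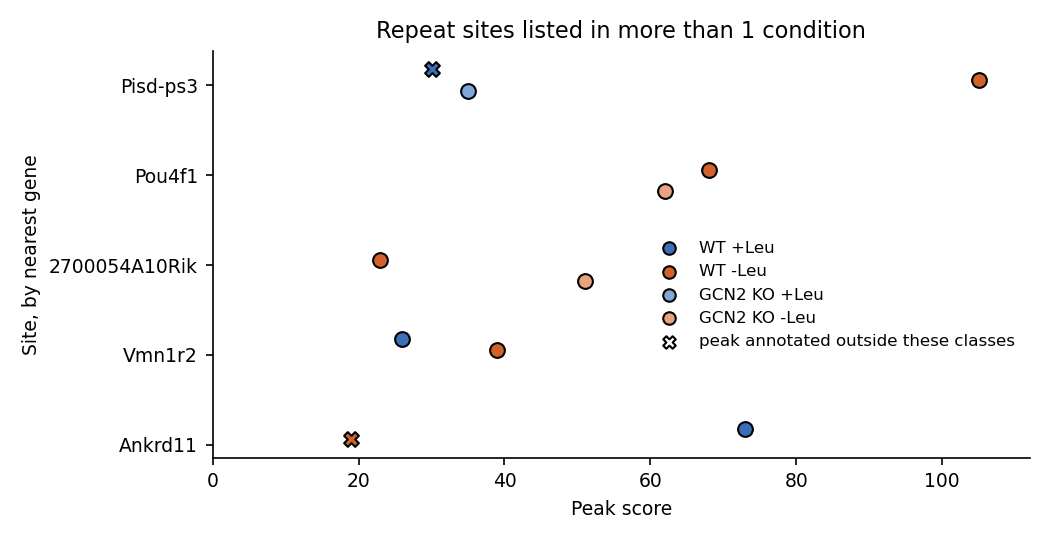
Peak score at the 5 repeat sites that were listed in more than 1 condition, named by nearest gene and colored by list, with a cross where that list's peak was annotated outside these repeat classes. The Pisd-ps3 site was in 3 lists and the other 4 sites in 2, and no site had a point for all 4 lists.

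The recurring sites were compared by word share and by repeat unit, which comes from the same annotation as the repeat class of the rule. Of the 9 repeat peaks with under 90% of their 50-base words found once, 6 recurred, at 3 sites with 2 repeat peaks each, and of the other 106, 3 did (2.83%, 0.967 to 7.99). A site with 2 repeat peaks counts 2 times in this split by peak, whereas the split by unit below is by site. Among the other intron and intergenic peaks the same split gave 19 of 121 (15.7%, 10.3 to 23.2) and 849 of 14850 (5.72%, 5.36 to 6.10). On contigs lay 2 of the 9 repeat peaks and 12 of the 121 other peaks of low word share. The 3 sites of low word share were Pisd-ps3, Pou4f1 and 2700054A10Rik, while Vmn1r2 and Ankrd11 had 100% of their words found once. The CACAG unit (CTGTG on the other strand) was the name of 3 of the 5 recurring sites. Among these, Pisd-ps3 and 2700054A10Rik were also of low word share, so the splits are not separate observations. Of the 6 CACAG sites 3 recurred (50.0%, 18.8 to 81.2), against 2 of 105 for all other repeat sites (1.90%, 0.524 to 6.68). Both splits were chosen after the recurring sites were seen, so no test goes with them, and the part of read placement in recurrence was not tested.

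The recurring sites of that name did not share a sequence, while some others did. The lag at which a window best matched itself was 5 bases at 2700054A10Rik, 14 at the contig site and 21 at Vmn1r2, and no 12-base word was shared between any pair of these 3 windows. The 21-base period recurred in the second (CACAG)n peak near Vmn1r2, 14.8 kb away with a score of 38 in WT -Leu, and in a (CTGTG)n peak near Trpm1 with a score of 30 in WT +Leu. These 2 windows shared 47 words of 12 bases, which is 20.9% of the smaller set, and the recurring Vmn1r2 window shared 35 and 41 with them. The recurring Vmn1r2 site lay 17.8 kb from an assembly gap and the 2700054A10Rik site 39.3 kb. The Pou4f1 and Ankrd11 sites lay 20465 and 6260 kb from one, and the second Vmn1r2 peak, which did not recur, 32577 bp. Within 100 kb of a gap lay 5 of all 115 repeat peaks and 1.42% of the other intron and intergenic peaks. A link between gaps and recurrence was not tested. The contig chrUn_JH584304, 114452 bases long, carried 33 listed peaks of which 27 recurred, 2 of them repeat peaks. The (CGGAA)n tract was rare as such: the reference held 8 perfect tracts of its unit of at least 30 bases, against 195726 of the CA unit, of whose 48 peaks 1 recurred.

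The composite site TGATGCAA was absent within 50 bp of the center in all 115 repeat peaks. Of all intron and intergenic peaks, 2.56% (+Leu) and 6.92% (-Leu) held it in WT, and 0.818% (+Leu) and 1.05% (-Leu) in GCN2 KO. The counts of 0 allow up to 7.32%, 7.69%, 17.6% and 16.7% in the single lists, so a difference was not detectable in any one of them. Pooled over the lists, 0 of 115 allows up to 2.61% (3.23% as the Wilson limit). The other peaks held it in 3.59% (3.31 to 3.90), a difference of -3.59 points (-3.90 to -0.349). The rule chose repeat peaks by the sequence at their center, and their median window was 40.2% masked as repeat, against 7.64%. The shares of this and the motifs below are thus not independent of the rule, and no conclusion is drawn from the difference. The windows 1 kb to either side of the other peaks held TGATGCAA in 0.217%, and those beside repeat peaks in 0 of 230. Within 150 bp it lay in 1 repeat peak, a (CA)n peak near 1600002D24Rik in WT -Leu with a score of 37, at 139 bp from the center.

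With any base at the variable position (TGATGNAA), 1 repeat peak had the motif within 50 bp, against 5.87% of the other peaks. It was the CT-rich peak near Gm19510, which held TGATGAAA on the minus strand at 13 and 23 bp from the center, as capitals in its sequence show. Within 150 bp, 6 repeat peaks held it (5.22%, 2.41 to 10.9) and 9.53% of the other peaks (9.07 to 10.01). These 6 were 2 in WT +Leu, among them Ankrd11, and 4 in WT -Leu, where 7.46% and 16.1% of the other peaks held it. In GCN2 KO, where 4.18% (+Leu) and 4.65% (-Leu) of the other peaks held it, 0 of 17 and 0 of 18 allow up to 17.6% and 16.7%. The cAMP response element TGACGTCA and the AP-1 site TGACTCA were both searched on either strand within 50 bp and found in 0 repeat peaks, against 0.0802% and 2.57% of the other peaks.

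Position relative to genes differed from that of the other peaks in some lists. In WT +Leu, 26 of 41 repeat peaks lay over 50 kb from a TSS (63.4%, 48.1 to 76.4) against 37.8% of the other peaks, a difference of 25.6 points (10.2 to 38.7). The share was 38.5% in WT -Leu, and 47.1% with and 38.9% without leucine in GCN2 KO. These 3 differences, of 1.996, 10.9 and 0.969 points, had intervals that span 0. The median distance was 64.9 kb (+Leu) and 33.9 kb (-Leu) in WT and 29.1 kb (+Leu) and 31.0 kb (-Leu) in GCN2 KO, beside 31.2, 29.3, 30.7 and 32.8 kb for the other peaks. Introns held 24 (+Leu) and 14 (-Leu) repeat peaks in WT and 5 (+Leu) and 8 (-Leu) in GCN2 KO. In WT -Leu this was 35.9% (22.7 to 51.6), a difference of -17.0 points (-30.2 to -1.22) from the other peaks. These are among 80 comparisons of repeat peaks with other peaks, 20 in each list, and the intervals are not adjusted for their number.

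**Figure D5:**
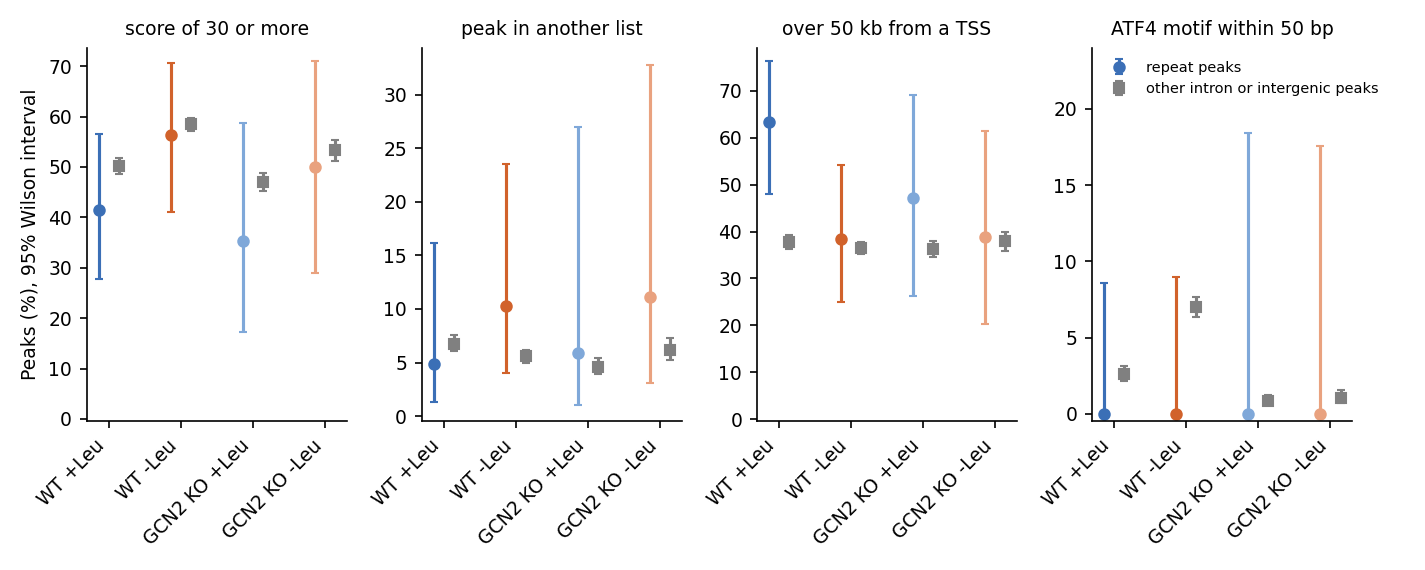
Share in percent of repeat peaks (circles, colored by list) and of other intron and intergenic peaks (grey squares) with a score of 30 or more, a peak in another list, a TSS over 50 kb away, and TGATGCAA within 50 bp, with 95% Wilson intervals. The circle for WT +Leu at 63.4% lies apart from its square at 37.8% for distance to a TSS, and all 4 circles for the motif are at 0.

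Within 5 kb of a TSS there were 15 repeat peaks, with 1 (+Leu) and 6 (-Leu) in WT and 3 (+Leu) and 5 (-Leu) in GCN2 KO. In GCN2 KO -Leu these were 27.8% (12.5 to 50.9) against 11.3% of the other peaks, a difference of 16.5 points (1.11 to 39.6). In WT +Leu the difference was of the other sign, with 2.44% against 12.6%, and the upper end of its interval was at 0 to 2 decimals. In WT -Leu (15.4% against 13.2%) and GCN2 KO +Leu (17.6% against 12.1%) the intervals span 0, and over the 4 lists the shares were 13.04% (8.07 to 20.4) and 12.5%. The 5 peaks of GCN2 KO -Leu were 2700054A10Rik, (CA)n peaks near Gm1587 and Tspo2 with scores of 37 and 20, a (TCCG)n peak near AI413582 with 30 and a (CAGAGA)n peak near A530016L24Rik with 23. In WT -Leu they included Fam58b, Wnt6, a (TG)n peak near Msmb with a score of 38 and a (CATG)n peak near 4930567H12Rik with 28. In GCN2 KO +Leu they were the IMPB_01 peak near S1pr1, the sphingosine-1-phosphate receptor gene, with 28, and the peaks near Scara5 and Wbp1l with 20 each.

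Of 74 genes known as ATF4 targets, listed from general knowledge of the field, 0 had a repeat peak within 5 kb of the TSS, while 62 had another listed peak there in at least 1 list and 29 had an intron or intergenic one outside these repeats. Only 15 repeat peaks, against 1877 other intron and intergenic peaks, lay that near to any TSS, so this 0 says little of the targets. At any distance, 1 target was the nearest gene of a repeat peak. This was Kdm6b, which encodes a histone H3K27 demethylase, at 59042 bp from the (TAAG)n peak of WT +Leu that scored 37 and lay in an intron of a neighbouring transcript.

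Repeat peaks were spread over the chromosomes, with 9 each on chromosomes 2 and 5, 1 on chromosome 18, 2 on the unplaced contig, and 0 on X and Y. Chromosome X held 52 of all listed peaks. They were 0.961% of the intron and intergenic peaks of WT +Leu (0.709 to 1.30) and 0.711% of those of WT -Leu (0.520 to 0.970). In GCN2 KO they were 0.556% with leucine (0.348 to 0.889) and 0.790% without it (0.5004 to 1.25). The ratio of -Leu to +Leu repeat peaks was 0.951 in WT (0.616 to 1.47) and 1.06 in GCN2 KO (0.552 to 2.03). For the other intron and intergenic peaks it was 1.29 in WT (1.24 to 1.34) and 0.744 in GCN2 KO (0.704 to 0.786). The interval of the repeat peaks spans 1 in both genotypes and takes in the ratio of the other peaks.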

How the data were processed

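The deposited files were 4 annotated ATF4 peak lists, 1 for each condition, with groups taken from the sample titles. The authors trimmed single 50-base reads, aligned them to mm10 with BWA 0.7.12, called peaks with MACS2 2.1.0 at an FDR of 0.05 without a shifting model, and used HOMER 4.7 to annotate windows of ±150 bp around each summit. The file headers name the +Leu input of the same genotype as the control of both lists. Each deposited peak has a score from the peak caller, without normalization between libraries, and its window's GC and CpG content, which the authors deposited as a fraction. The 2 input libraries were not analysed here, and the lists hold no read counts, so depth could not be set beside any value.

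Repeat peaks, their units and the comparisons were chosen with earlier results of these data known. The reference was GRCm38.p6 from RefSeq: the deposited GC and CpG values were equal to those of its sequence in all 4839, 6362, 3549 and 2658 windows on assembled chromosomes, and on contigs in all but 1 window of GCN2 KO +Leu. From the lists and this sequence were computed recurrence (centers 300 bp or less apart, sites by single linkage), motifs on both strands, the share of 50-base words found once on both strands of the assembled and unplaced reference, and perfect tandem tracts. Shares carry 95% Wilson intervals, and differences Newcombe intervals. A count of 0 allows up to 3 counts of the total. These cover counting error only. With 1 library per condition no test was run. Counting of words and tracts and the joining of peaks were tested on simulated data. Computations ran in Python 3.11.15 (pandas 2.3.3, numpy 2.4.6, scipy 1.17.1, numba 0.67.0), and plots in matplotlib 3.10.9.

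Named are, in each list, the 5 repeat peaks with the highest score, the 3 highest of each repeat class, the 5 highest within 5 kb of a TSS and the 5 highest with TGATGCAA within 50 bp (there were 0), sites in 3 or more lists, and repeat peaks within 5 kb of a known ATF4 target (0). The other recurring sites, Ccdc42, Trpm1, 1600002D24Rik and the Gm19510 motif were named after their values were seen. Of the peaks this rule takes, 1 satellite peak is not reported here. The alternatives were assembled chromosomes, any gene annotation, scores of 30 or more, the 2672 strongest peaks of each list, members within 1000 bp counted once, simple repeats alone, distances of 100 and 1000 bp, TGATGNAA, a motif window of 150 bp and words within 50 bp of the center. Leaving out the CACAG unit, and requiring the other peak to be a repeat peak too, were added after the data were seen.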

Additional observations from a re-analysis of the deposited data

Results flagged for a closer look

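The number of repeat peaks moved in opposite directions between the genotypes when leucine was withheld, by -2 in WT (39 against 41) and by 1 in GCN2 KO (18 against 17). Their share among intron and intergenic peaks also moved in opposite directions, by -0.251 percentage points in WT and by 0.234 points in GCN2 KO. The share also follows its denominator, since the other intron and intergenic peaks went from 4224 to 5449 in WT and from 3038 to 2260 in GCN2 KO, so it says no more of the repeat peaks than their number does. Each is the difference of single libraries, and the difference between the genotypes was not tested.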

How the results depend on the processing

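Of 123 values recomputed under an alternative, 110 stayed within the 95% interval of the reported share, within 1.5 times of the reported count, or within 1 SD for the share of words found once. Keeping scores of 30 or more left 17 and 22 repeat peaks in WT and 6 and 9 in GCN2 KO (+Leu, -Leu), and took the WT +Leu shares with a peak in another list and in WT -Leu from 4.88% to 0%. Keeping the 2672 strongest peaks of each list left 21 (+Leu) and 15 (-Leu) in WT. With centers up to 1000 bp apart, 8 repeat sites were in more than 1 list, against 5, and the WT -Leu shares with a peak in another list and in WT +Leu were 17.9% (10.3% at 300 bp) and 10.3% (5.13%). At 100 bp the GCN2 KO -Leu share was 5.56% (11.1%) and the WT -Leu share in WT +Leu 2.56%. With scores of 30 or more the GCN2 KO +Leu share was 16.7%, which is 1 of 6 (5.88% before). These lie within the wide intervals of the reported shares, which rest on 1 to 4 peaks each. On assembled chromosomes the GCN2 KO +Leu share with a peak in another list was 0% against 5.88%, since its only such peak was on the contig. Without the CACAG unit, an alternative chosen after seeing the data, 2 sites were in more than 1 list, and the share with a peak in another list was 2.86% in WT -Leu (10.3% with it) and 0% in GCN2 KO +Leu. No paired analysis was possible because each condition had 1 library and no result came from a test, and no replicate could be left out. The lists give no depth, so a repeat site missing from a list may have fallen under that list's limit, and the smaller GCN2 KO lists, with 17 and 18 repeat peaks, could show only large differences.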
